A study of Mus musculus with 41 samples.

Results

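Expression was compared between SAMP8 and SAMR1 mice in the cortex at 9 months of age, in 7 of the 41 libraries of the study: the 4 labelled SAMP8 and the 3 labelled SAMR1. The members were taken by their labels for strain, region and age, and no measured value entered the choice. SAMP8 (senescence-accelerated mouse prone) and SAMR1 (senescence-accelerated mouse resistant) are inbred mouse strains bred from the same stock. SAMP8 mice age early and lose memory, and SAMR1 mice serve as their controls. All mice were males bought from a breeder, and no treatment was compared. The study put mice through behavioural tests and magnetic resonance imaging under isoflurane before tissue was taken. Mice were anaesthetized with ketamine and medetomidine for perfusion, and each library came from the cortex of 1 hemisphere. The question was which genes differ between the senescence-prone strain and its control at the oldest age studied.

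Inbred strains carry different alleles at many loci. Genes inside such regions can be read at different levels in every tissue and at every age, including pseudogenes and recent copies that one strain has and the other lacks. Levels of these genes mark the strain from which a library came, whereas genes that follow ageing or neuronal activity can change with age, region or handling. In the cortex, markers of layers, glia, meninges and neighbouring regions also record which cells a dissected piece held.

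The SAMP8 libraries (replicates 1 to 4, mouse numbers 28, 30, 33 and 34) held 6459723, 37931897, 583076 and 11196664 counts. The SAMR1 libraries (replicates 1 to 3, mouse numbers 13, 14 and 5) held 9143264, 5273074 and 7628795 counts. SAMP8 replicate 3 was the shallowest, with 13908 genes detected against 21669 to 29178 in the others, and it stood apart on the first principal component, which held 73.0% of the variance. SAMP8 replicate 2 alone gave 67.5% of the counts under its label. Cortical markers were read in every library: the summed level of 8 excitatory neuron markers was 3494 to 5442 CPM (counts scaled to a library of 1000000) under the SAMP8 label and 3717 to 4382 CPM under the SAMR1 label. Each direction below is given by the deposited label.

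The strain genes Dctn3, P3h2, AC153155.1 and Gm6166 ran against the labels in all 7 libraries. Dctn3, which encodes a subunit of dynactin, the cofactor of the dynein motor, lies on chromosome 4 (chr4:41714798-41723170, GRCm38). It was read at 39.9, 50.01, 46.0 and 32.4 CPM in the 4 SAMP8 libraries and at 139.7, 250.1 and 119.2 CPM in the 3 SAMR1 libraries. The groups did not overlap, and Dctn3 was lower under the SAMP8 label by a log2 fold change of -2.03 ± 0.24 (SE), with an adjusted p of 0.00407 by edgeR's quasi-likelihood test. On a scale set over all 41 libraries, the cortex at 2.5 months held the opposite order, with 121.8 to 167.5 CPM in 3 SAMP8 libraries and 27.6 to 55.3 CPM in 4 SAMR1 libraries. Of these, SAMP8 replicate 2 (131.4 CPM) rested on 6 counts of Dctn3 and SAMR1 replicate 4 (27.6 CPM) on 14 counts. The hippocampus at 9 months also held the opposite order, with 86.9 to 152.0 CPM in 4 SAMP8 libraries and 37.2 to 44.95 CPM in 2 SAMR1 libraries. At 6 months the cortex held 127.9 to 196.7 CPM in 4 SAMP8 libraries and 30.3 to 112.0 CPM in 3 SAMR1 libraries.

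The same turn was seen in P3h2 and AC153155.1, which were lower in SAMP8 at 2.5 months, and in Gm6166, which was higher. In SAMP8 replicate 2 of the cortex at 2.5 months, P3h2 and AC153155.1 had 0 counts and Gm6166 had 2. P3h2 (prolyl 3-hydroxylase 2, which modifies collagen; chr16:25959288-26105784) was read at 14.3, 16.7, 19.7 and 13.5 CPM under the SAMP8 label and at 3.13, 3.64 and 5.71 CPM under the SAMR1 label, a log2 fold change of 1.90 ± 0.32 (adjusted p = 0.0272). In the hippocampus at 9 months its levels were 3.82 to 5.31 CPM in SAMP8 and 15.4 to 23.8 CPM in SAMR1, on the scale of 41 libraries. The long noncoding RNA AC153155.1 was read at 24.04, 31.8, 19.7 and 26.8 CPM under the SAMP8 label and at 0.209, 0.364 and 2.09 CPM under the SAMR1 label, a log2 fold change of 4.92 ± 0.50 (adjusted p = 0.000805). The pseudogene Gm6166 was read at 0.620, 0.796, 6.57 and 1.37 CPM against 25.3, 25.1 and 29.2 CPM, a log2 fold change of -4.62 ± 0.42 (adjusted p = 0.000507). None of the 3 genes overlapped between the labels in the cortex at 9 months. In the cortex at 6 months, on the scale of 41 libraries, Gm6166 was at 20.04 to 44.4 CPM in SAMP8 and 2.14 to 41.3 CPM in SAMR1. P3h2 was at 2.39 to 5.01 CPM and 4.78 to 12.5 CPM. For both genes SAMR1 levels at that age thus reached the SAMP8 range. AC153155.1 did not overlap there, at 0.465 to 1.76 CPM and 3.76 to 25.4 CPM.

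**Figure D1:**
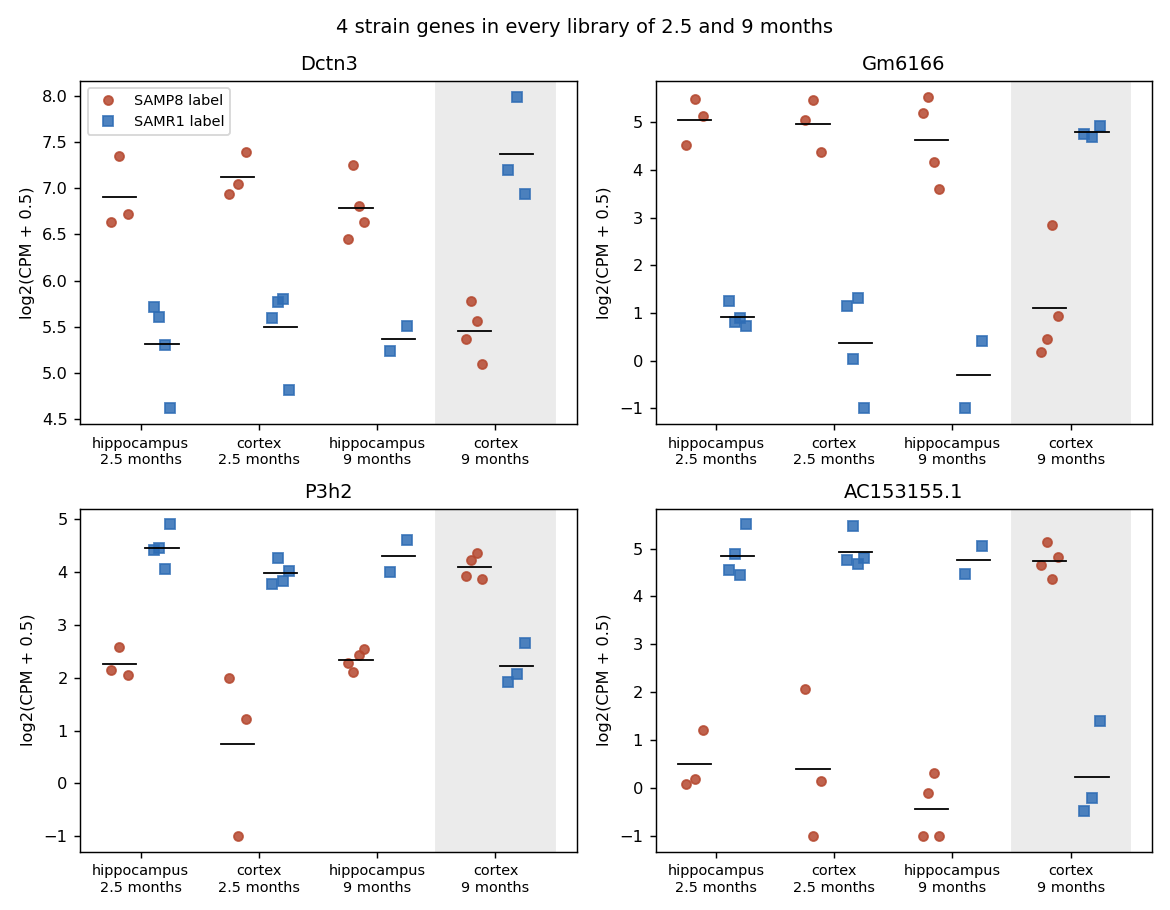
Levels of 4 strain genes as log2(CPM + 0.5), scaled over all 41 libraries, in each library of 2.5 and 9 months; circles are SAMP8 and squares SAMR1 labels, and black bars are means of the plotted values. In the shaded cortex at 9 months the order of the labels is turned against the other 3 sets: Dctn3 and Gm6166 are lower and P3h2 and AC153155.1 higher under the SAMP8 label.

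Strain genes were also counted by rule. In the cortex at 2.5 months, 4 of 13671 genes tested (0.0293%) met an adjusted p no greater than 0.05 together with a log2 fold change of at least 2 in either direction. All 4 had the opposite sign in the cortex at 9 months, and 3 of them (Gm6166, AC153155.1 and the pseudogene Vcp-rs) were called in that opposite direction, while the ribosomal protein pseudogene Rpl7a-ps7 had a log2 fold change of -0.46 with an adjusted p of 0.877. Over all 13600 genes tested in both, 53.9% had opposite signs. Without the 2.5-month libraries under 1000000 counts, the rule chose 2 genes, Gm6356 and Vcp-rs. Both were called in the opposite direction, and Gm6166 and AC153155.1 were no longer chosen. These calls are edgeR's, and DESeq2 did not call Gm6356 in the cortex at 9 months (adjusted p = 0.569). With all libraries and the looser thresholds of an adjusted p of 0.1 and a log2 fold change of 1, 7 of 11 genes were opposite in sign. Of the 11, 4 were called in the opposite direction and 1, Nnat, in the same direction. Of the 15425 genes tested in the hippocampus at 2.5 months, 5 (0.0324%) met the first rule, and all 5 were called in the opposite direction in the cortex at 9 months (Gm6166, Gm6356, P3h2, AC153155.1 and Vcp-rs). In the hippocampus at 9 months, 52 of 13014 genes (0.400%) were called; of the 51 also tested here, 38 had the opposite sign, 9 of them called, and no gene was called in the same direction. Over all genes tested in both, 52.0% had the opposite sign for the hippocampus at 2.5 months and 55.4% for the hippocampus at 9 months. The choices in hippocampus were made after seeing the data.

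The labels give 3 SAMP8 mouse numbers, 28, 33 and 34, to both the cortex and the hippocampus at 9 months. For mouse 28, Dctn3 was read at 40.8 CPM in cortex and 152.0 CPM in hippocampus, and AC153155.1 at 24.6 and 0.437 CPM. For mouse 33 the Dctn3 values were 46.6 and 111.3 CPM, and for mouse 34 they were 33.8 and 98.7 CPM. The libraries of both regions thus carry 1 mouse number but stand on opposite sides of the strain difference. An exchange of the SAMP8 and SAMR1 labels in the cortex at 9 months is possible and was not resolved from the counts. Such an exchange would turn the sign of every fold change between the labels of these libraries. Mouse numbers do not identify a mouse across ages, since SAMR1 numbers 5 and 13 stand in the cortex at both 2.5 and 9 months.

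The difference between regions was also tested as such, in a model of 12 groups over all 41 libraries. Neither this model nor the fit of both regions below held a term for mouse. The libraries of the 3 SAMP8 mouse numbers found in both regions at 9 months were thus treated as independent. Of 17039 genes tested, 45 (0.264%) had a strain difference that differed between cortex and hippocampus at 9 months, and 75 (0.440%) had one that differed between 9 and 2.5 months in the cortex. For Dctn3 the log2 difference between the cortex and hippocampus effects was -3.49 ± 0.48 (adjusted p = 2.74e-05), and for P3h2 it was 4.04 ± 0.58 (adjusted p = 5.77e-05). When the 13 libraries of both regions at 9 months were fitted together with region as a covariate, a choice made after seeing the data, 1 gene was called higher and 0 lower among 17146 by edgeR, with 835 at an unadjusted p under 0.05; DESeq2 was not run on that fit.

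Across the transcriptome, 15370 genes passed the filter on low counts. A gene was called when its adjusted p did not exceed 0.1 and its level changed by at least 1 on the log2 scale in either direction, the thresholds of the study. Under the SAMP8 label, 21 genes (0.137%) were called higher and 23 (0.150%) lower. At any fold, 30 genes (0.195%) were higher and 29 (0.189%) lower with an adjusted p no greater than 0.1. An unadjusted p under 0.05 was reached by 1487 of the 15370 genes, which is the background for the list counts below. With the same 2 thresholds DESeq2 called 65 genes higher and 41 lower among 15368. All 4 SAMP8 libraries lay above all 3 SAMR1 libraries for 725 genes (4.72%) and below them for 861 genes (5.60%). The number of calls depended on single libraries, being 8 higher and 6 lower without SAMP8 replicate 2 as well as without SAMR1 replicate 2, 11 and 13 without SAMP8 replicate 1, 50 and 28 without SAMP8 replicate 3, and 51 and 54 without SAMR1 replicate 3. Without SAMP8 replicate 4, and also without SAMR1 replicate 1, 17 genes were higher and 15 lower. AC153155.1 was called under all 17 alternative settings run, and Gm6166 and Dctn3 under 16 of 17. With DESeq2, 42 of the 44 called genes kept their call, and Gm13306 and Gm6356 lost it. Without SAMP8 replicate 2, 11 of the 44 called genes kept their call, and the same number did without SAMR1 replicate 2. Of the called genes described here, Gm6166, AC153155.1, Dctn3, Gm13306, Gm6356, Kmt2d and Rny1 kept their call without either library, and the others lost it in both cases.

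**Figure D2:**
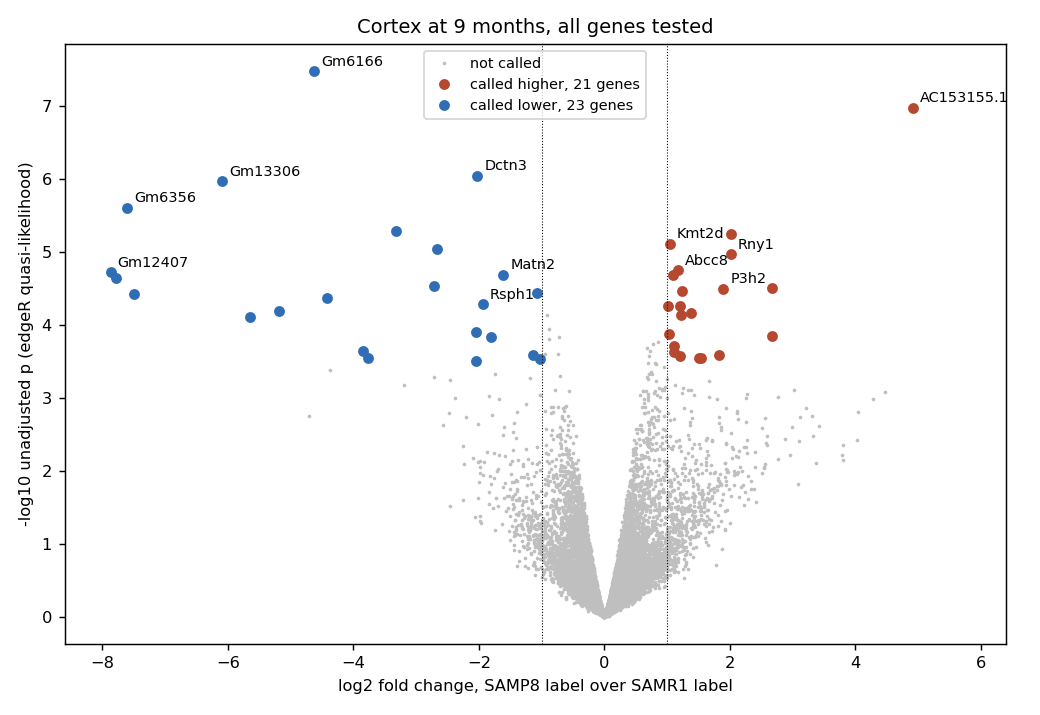
Log2 fold change of the SAMP8 over the SAMR1 label (x axis) against -log10 of the unadjusted p (y axis) for 15370 genes in the cortex at 9 months; dotted lines mark a log2 fold change of 1 in either direction. The 23 genes called lower reach larger fold changes than most of the 21 called higher, and Gm6166 and AC153155.1 have the smallest p.

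The leading protein-coding gene with a RefSeq promoter in each direction was Dctn3 among the lower and Kmt2d among the higher genes. Their upstream stretches are shown for reading, and whether the promoters have a part in either call was not tested. Of the 44 called genes, 17 matched a RefSeq promoter. Each is the 250 bases before the transcription start on the minus strand of the GRCm38.p6 reference, which is not a sequence of either strain, at chr4:41723164-41723413 for Dctn3 and chr15:98871206-98871455 for Kmt2d. Capitals mark matches on either strand to the GC box GGGCGG, the CCAAT box CCAAT and the TATA box TATAAA.
Dctn3: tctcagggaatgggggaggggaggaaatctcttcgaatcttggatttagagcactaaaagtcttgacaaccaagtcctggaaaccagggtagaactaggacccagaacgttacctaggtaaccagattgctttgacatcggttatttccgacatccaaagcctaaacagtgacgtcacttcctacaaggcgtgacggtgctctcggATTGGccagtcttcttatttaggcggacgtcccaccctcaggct
Kmt2d: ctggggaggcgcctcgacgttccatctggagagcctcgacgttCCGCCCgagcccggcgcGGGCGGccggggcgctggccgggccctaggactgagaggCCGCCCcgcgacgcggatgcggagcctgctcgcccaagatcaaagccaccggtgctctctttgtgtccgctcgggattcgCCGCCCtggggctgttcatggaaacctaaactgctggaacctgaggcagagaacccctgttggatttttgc
The Dctn3 stretch held 1 CCAAT box, found in 33.8% of all 32851 promoters, and no GC box. The Kmt2d stretch held 4 GC boxes, found at least once in 32.7% of promoters, and no CCAAT box. Neither held the TATA box, found in 12.4% of promoters, and the 3 motifs did not overlap in these stretches. The matches describe the reference letters only.

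Called genes lay close together beside Dctn3. Of the 23 genes called lower, 8 (34.8%) were on chromosome 4, where 5.85% of all genes tested lie. In a stretch of 1005 kb (chr4:41714798-42719893), chosen after its values were seen, all 9 genes reported here had fold changes below 0, 5 were called lower and 7 had all SAMP8 libraries below all SAMR1 libraries. Over all genes tested, 0.150% were called lower and 5.60% had all SAMP8 libraries below. Galt, an enzyme of galactose metabolism, was at 26.7 ± 7.11 CPM (SD, n = 4) and 27.8 ± 5.31 CPM (SD, n = 3), with an adjusted p of 0.890. Rpp25l, just outside the stretch, was at -0.94 ± 0.46 on the log2 scale (adjusted p = 0.542), and its levels overlapped.

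Several genes of this stretch were at or near 0 under the SAMP8 label. Gm12407 had 0 counts under the SAMP8 label and 59 under the SAMR1 label, which makes it at least 50.1-fold lower against a floor of 3 counts over the group. Gm17167 had 0 and 46 counts, at least 39.1-fold lower, and AC102496.1 on another chromosome had 0 and 55 counts, at least 46.7-fold lower. The 95% exact intervals of the ratios began lower, at 39.5-fold for Gm12407, 30.5-fold for Gm17167 and 36.7-fold for AC102496.1. Without SAMP8 replicate 2, the deepest library, the bounds against the floor were 16.3-fold for Gm12407, 12.7-fold for Gm17167 and 15.2-fold for AC102496.1. That alternative was added after seeing the data. Gm21955 had 3 and 58 counts, a ratio of 49.3 with a 95% exact interval of 16.04 to 245.8. Gm13306 was read at 0, 0.186, 3.28 and 0 CPM under the SAMP8 label and at 9.50, 15.3 and 11.3 CPM under the SAMR1 label, and the 3.28 CPM came from the shallow SAMP8 replicate 3. Elsewhere, Gm6356 on chromosome 14 had 2 and 230 counts, a ratio of 293.0 (80.2 to 2434). Trim12a on chromosome 7 had 2 and 63 counts, a ratio of 80.3 (21.3 to 677.2). DESeq2 called neither Gm6356 (adjusted p = 0.569) nor Gm13306 (adjusted p = 0.179). The floors and intervals cover counting error only, and several of these genes have close copies among which reads could be divided. Genes with Gm or clone names outside the strain list were named after their values were seen.

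**Figure D3:**
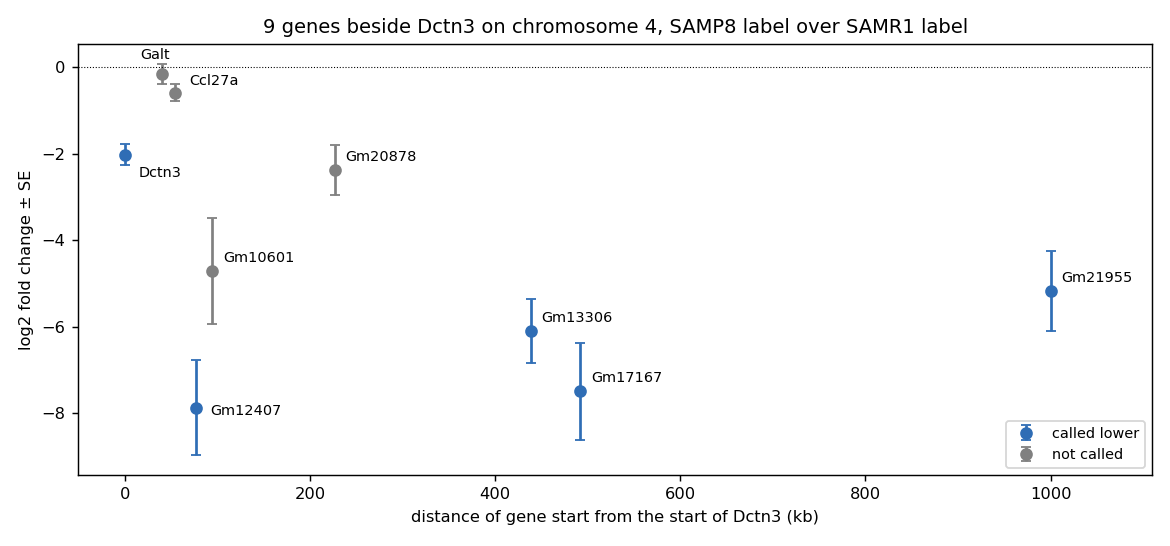
Log2 fold change ± SE of the SAMP8 over the SAMR1 label (y axis) for the 9 genes reported in the stretch that begins with Dctn3, by the distance of each gene's start from that of Dctn3 in kb (x axis); blue points were called lower. All 9 points lie below 0, and Galt is the nearest to 0. Gm12407 and Gm17167 had 0 counts under the SAMP8 label, so the size of their fold changes and bars depends on the prior count.

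Among the genes called higher, Kmt2d and Abcc8 had the smallest p of the protein-coding genes. Kmt2d, a methyltransferase of histone H3 lysine 4, was read at 265.7, 259.6, 259.4 and 264.1 CPM under the SAMP8 label and at 105.1, 148.2 and 129.4 CPM under the SAMR1 label, a log2 fold change of 1.04 ± 0.15 (adjusted p = 0.0147). Abcc8, the sulphonylurea receptor subunit of the ATP-sensitive potassium channel, was read at 42.8, 47.8, 42.7 and 37.8 CPM against 19.01, 20.01 and 17.95 CPM, a log2 fold change of 1.17 ± 0.18 (adjusted p = 0.0225). Neither gene overlapped between the labels, and the SAMR1 values of Abcc8 lay within a narrow range. Named after their values were seen, the postsynaptic scaffold Shank1 (1.09 ± 0.17) and the T-type calcium channel Cacna1i (1.03 ± 0.20) were also called higher.

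Egr1, an immediate early transcription factor induced by neuronal activity, was read at 149.4, 284.1, 223.3 and 127.5 CPM under the SAMP8 label and at 77.1, 63.9 and 83.5 CPM under the SAMR1 label, a log2 fold change of 1.38 ± 0.25 (adjusted p = 0.0385). Rasd2 (Rhes), a small GTPase most abundant in the striatum, was read at 93.5, 75.3, 55.8 and 53.6 CPM against 27.6, 37.1 and 27.3 CPM, a log2 fold change of 1.22 ± 0.22 (adjusted p = 0.0388). Both sets of libraries were separate for these genes, while the SAMP8 libraries spread over about the size of the difference. Rassf3, a Ras-association domain protein (1.23 ± 0.21), the transcription factor Nfic (1.21 ± 0.21) and the nuclear pore protein Pom121 (1.12 ± 0.23) were called as well, with no overlap. Lrrc10b was called at 1.83 ± 0.38, but its SAMP8 values of 22.96, 15.4, 3.28 and 18.3 CPM overlapped the SAMR1 values of 4.804, 5.82 and 3.62 CPM through the shallow library.

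Small structured RNAs formed the other group of higher calls. Rny1, a Y RNA bound by the Ro protein, was read at 975.3, 507.3, 584.5 and 720.2 CPM under the SAMP8 label and at 93.4, 255.0 and 171.0 CPM under the SAMR1 label, a log2 fold change of 2.02 ± 0.30 (adjusted p = 0.0165). Snora73b, a small nucleolar RNA (1.51 ± 0.31), and Rn7s6 (1.21 ± 0.25) were also called. Of 17 alternative settings, Rny1 kept its call in 13, Rn7s6 in 6 and Snora73b in 5. Rny1 was not called when all 41 libraries or all cortex libraries were fitted. Of a list of 3 further structured RNAs, Rprl3 had a log2 difference of 0.97 ± 0.22 (adjusted p = 0.139) and Rpph1, the RNA of ribonuclease P, one of 1.02 ± 0.30 (adjusted p = 0.255), and 0 of 3 passed edgeR's test, although 3 had an unadjusted p under 0.05 and 1 passed in DESeq2. Library preparation used total RNA, and the recovery of such short transcripts was not tested.

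Genes of cilia, matrix and imprinting were among the lower calls. Rsph1, part of the radial spoke of motile cilia, was read at 3.41, 2.87, 6.57 and 3.72 CPM under the SAMP8 label and at 10.9, 16.9 and 12.5 CPM under the SAMR1 label, a log2 fold change of -1.94 ± 0.34 (adjusted p = 0.0339). Matn2, the matrix protein matrilin 2, was read at 20.01, 12.1, 6.57 and 14.98 CPM against 46.7, 53.5 and 34.2 CPM, a log2 fold change of -1.61 ± 0.26 (adjusted p = 0.0225). The groups did not overlap for either gene. Nnat (neuronatin), a paternally expressed imprinted gene, was read at 88.4, 52.5, 65.7 and 127.6 CPM against 165.9, 512.2 and 216.9 CPM, a log2 fold change of -1.81 ± 0.35 (adjusted p = 0.0633). Nnat was also lower in SAMP8 in the cortex at 2.5 months (-1.99, adjusted p = 0.0800), so by label it kept its direction, unlike Dctn3.

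Invs (inversin, of the primary cilium) was called at -1.03 ± 0.22 (adjusted p = 0.0827) and Gpatch11 at -1.07 ± 0.18 (adjusted p = 0.0278), without overlap. Tmem40 was read at 0, 0.212, 0 and 0.196 CPM against 1.67, 5.64 and 4.31 CPM. Of 15 strain genes named in earlier work on these data, 3 were higher and 7 lower when the adjusted p was held to 0.1 or less. Since they were chosen on these libraries, the count is not independent evidence. Among them Ranbp9, a scaffold that binds the Ran GTPase, was at -0.91 ± 0.16 (adjusted p = 0.0388), short of the fold threshold. Slc18b1 (1.19 ± 0.35, adjusted p = 0.256) and the fructose transporter Slc2a5 (-1.01 ± 0.38, adjusted p = 0.395) did not pass but did not overlap, and Ppp1r1a (0.16 ± 0.16) and Fabp5 (0.10 ± 0.20) overlapped.

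**Figure D4:**
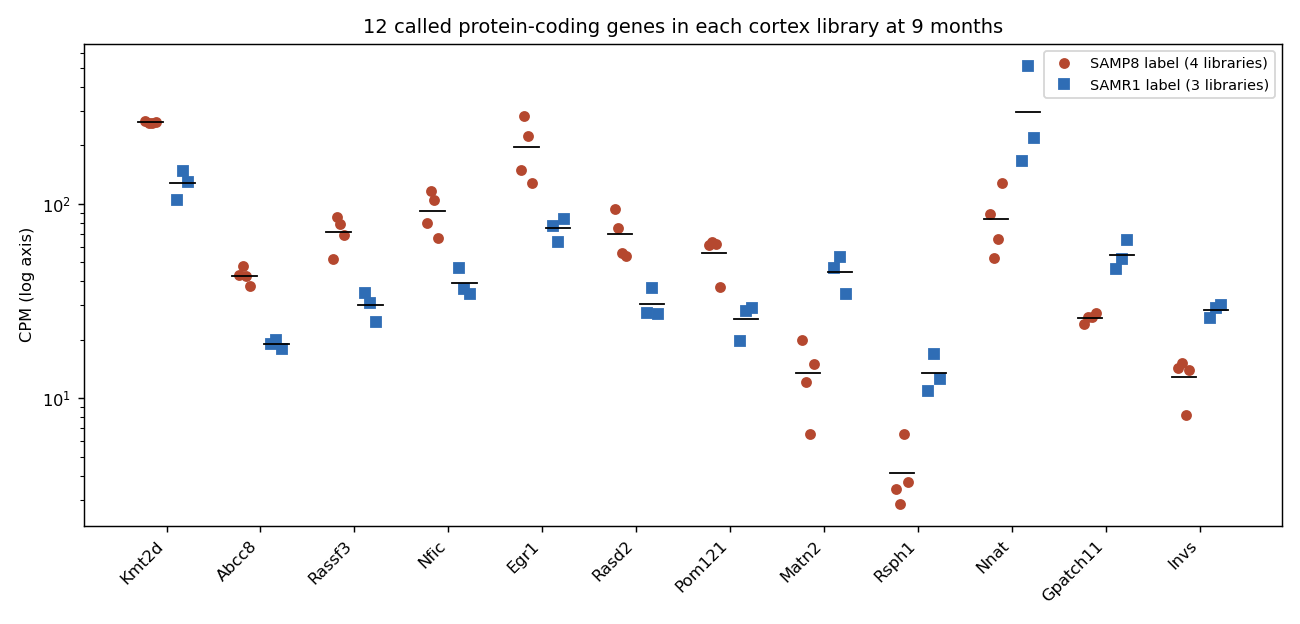
Levels in CPM on a log axis of 12 called protein-coding genes in each cortex library at 9 months; circles are the 4 SAMP8 libraries, squares the 3 SAMR1 libraries and black bars the means. The 7 genes on the left are higher and the 5 on the right lower under the SAMP8 label, with no overlap between the labels for any of them.

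Markers of neighbouring tissue differed in level between the libraries. All 12 striatal markers tested had fold changes above 0, with a median of 0.94. Over all 15370 genes the median was -0.01, and 48.8% were above 0. In edgeR 1 of the 12, Rasd2, passed the test, with 7 at an unadjusted p under 0.05 and 1 past the threshold in DESeq2. The median was 0.68 without SAMR1 replicate 3 and 1.07 without SAMP8 replicate 3. Drd2, the dopamine D2 receptor, was read at 24.5, 13.3, 13.1 and 15.9 CPM against 3.76, 13.1 and 1.39 CPM (adjusted p = 0.342), and Pde10a at 359.1, 245.5, 62.4 and 242.5 CPM against 94.6, 147.3 and 90.3 CPM (adjusted p = 0.331). The summed level of the 12 markers was 524.8 to 1834 CPM under the SAMP8 label and 443.8 to 1107 CPM under the SAMR1 label, overlapping, and none was at 0 in all libraries. The part that tissue beside the cortex has in the Rasd2 call was not tested, and in bulk samples fewer cells of a type and less RNA per cell cannot be told apart.

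Markers at the surface and ventricles of the brain ran the other way. All 7 meningeal markers tested had fold changes below 0 (median -1.29) and 0 passed in edgeR, with 4 at an unadjusted p under 0.05 and 2 past the threshold in DESeq2. The collagen gene Col1a2 was at 2.94 to 7.99 CPM against 5.84 to 23.8 CPM and Aldh1a2, which makes retinoic acid, at 2.15 to 5.47 CPM against 5.57 to 22.9 CPM. All 8 ependymal and motile cilia genes tested were below 0 (median -0.87), of which Rsph1 passed and the axonemal dynein Dnah5 did not (-0.61 ± 0.26, adjusted p = 0.466). Summed over the 11 members in the table, the ependymal list was at 29.8 to 54.9 CPM under the SAMP8 label and at 53.0 to 87.8 CPM under the SAMR1 label. For meninges the sums were 23.9 to 102.9 CPM and 42.9 to 166.9 CPM. Without SAMR1 replicate 2 the meningeal median was -0.80. The part of dissection in the Rsph1 call was not tested.

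Among glia, 8 of 10 astrocyte genes were below 0 and 1 passed. Their median of -0.10 turned to 0.007 under the offset for GC content and length described below and to 0.003 without SAMR1 replicate 1, and it was -0.26 without SAMR1 replicate 3. Aqp4, the water channel of astrocyte end-feet, was read at 112.0, 128.8, 111.6 and 135.1 CPM under the SAMP8 label and at 193.6, 217.0 and 198.7 CPM under the SAMR1 label, a log2 fold change of -0.73 ± 0.14 (adjusted p = 0.0633). Gfap, which marks reactive astrocytes, was at 150.1, 226.5, 252.8 and 136.0 CPM against 640.9, 461.7 and 123.3 CPM, so the third SAMR1 library was below all SAMP8 libraries (-1.12 ± 0.39, adjusted p = 0.350). Without that library, SAMR1 replicate 3, the log2 fold change of Gfap was -1.56, with an adjusted p of 0.00936 by edgeR. That setting also raised the calls over all genes to 51 higher and 54 lower. Since it drops the library that ran the other way, it cannot show that Gfap was lower. Aif1, which encodes the microglial protein Iba1, was at 3.28 to 9.10 CPM against 12.3 to 14.5 CPM with no overlap, but did not pass (-0.76 ± 0.28, adjusted p = 0.377). Of 12 microglial genes, 10 were below 0 (median -0.22, -0.11 without SAMR1 replicate 1, -0.13 without SAMP8 replicate 4 and -0.087 under the same offset) and 0 passed in edgeR or DESeq2, with 1 at an unadjusted p under 0.05. Apoe, listed with disease-associated microglia, was at -0.54 ± 0.18 (adjusted p = 0.325).

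Myelin genes followed single libraries. All 11 markers of myelinating oligodendrocytes were above 0 (median 0.37), 0 passed in edgeR or DESeq2 and 0 had an unadjusted p under 0.05. Mobp ranged from 330.0 to 658.8 CPM under the SAMP8 label and from 108.9 to 565.3 CPM under the SAMR1 label. Their summed level was 1002 CPM in SAMR1 replicate 3 and 5113 CPM in SAMR1 replicate 1, below and above all SAMP8 libraries. Without SAMR1 replicate 3 the median was -0.03, and without SAMR1 replicate 1 it was 1.09. Neurons differed by layer in sign only: 7 of 8 upper-layer markers were above 0 (median 0.37; Cux1, 0.51 ± 0.15, adjusted p = 0.260) and 6 of 9 deep-layer markers below 0 (median -0.42; Ccn2, -1.02 ± 0.24, adjusted p = 0.142), and 0 of either list passed in edgeR. At an unadjusted p under 0.05 there were 3 of the upper-layer and 3 of the deep-layer markers, and DESeq2 passed 0 and 1. The median was 0.24 for the upper layers without SAMP8 replicate 2 and -0.26 for the deep layers without SAMR1 replicate 1.

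Of activity-dependent genes, 19 of 24 immediate early genes were above 0 (median 0.50) and 1, Egr1, passed in edgeR. At an unadjusted p under 0.05 there were 11 of the 24, against 1487 of all 15370 genes, and 2 passed the threshold in DESeq2. Nr4a1 was read at 32.0, 76.4, 39.4 and 38.5 CPM against 24.5, 12.4 and 19.6 CPM without overlap (1.33 ± 0.31, adjusted p = 0.139). Fos was at 12.7, 39.3, 3.28 and 8.91 CPM against 8.15, 5.64 and 6.96 CPM (adjusted p = 0.364). SAMP8 replicate 2 was the highest for Egr1, Nr4a1 and Fos, and without it the median of the list was 0.32 and Egr1 was not called. Of 42 histone and DNA modifiers, 30 were above 0 (median 0.16), against 48.8% of all genes. For 9 of them all SAMP8 libraries lay above all SAMR1 libraries, against 4.72% of all genes. Kmt2d alone passed in edgeR, with 11 at an unadjusted p under 0.05 and 4 past the threshold in DESeq2. Kmt2b was at 0.80 ± 0.19 and Tet3 at 0.70 ± 0.17. Without SAMP8 replicate 4 or SAMR1 replicate 2 that median was 0.10.

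Lists of chaperones, mitochondrial genes and interferon-stimulated genes had medians below 0. Of 23 chaperones and genes of the unfolded protein response, 22 were below 0 (median -0.29, and -0.17 by limma voom), 1 passed in edgeR and 2 in DESeq2. Pdia6, a protein disulphide isomerase of the endoplasmic reticulum, was read at 59.4, 63.4, 49.3 and 70.9 CPM against 97.5, 139.9 and 107.4 CPM and passed (-0.88 ± 0.17, adjusted p = 0.0652). Hspa5 (BiP), at 118.2 to 186.9 CPM against 217.0 to 231.2 CPM, did not overlap and did not pass (adjusted p = 0.235). All 13 protein-coding genes of the mitochondrial genome were below 0 (median -0.58) and 0 passed in edgeR, with 7 at an unadjusted p under 0.05 and 2 past the threshold in DESeq2. The cytochrome oxidase subunit mt-Co2 was at -0.79 ± 0.19 (adjusted p = 0.139). The median was -0.26 under the offset for GC content and length and -0.37 without SAMR1 replicate 3, in which 4.29% of counts were mitochondrial against 2.05% to 2.61% in the others. Of 78 nuclear genes of the respiratory chain 51 were below 0 (median -0.09; Ndufb8, -0.66 ± 0.16, adjusted p = 0.168) and 0 passed in edgeR. At an unadjusted p under 0.05 there were 5 of the 78, against 1487 of all 15370 genes, and 1 passed the threshold in DESeq2. The median of these nuclear genes was -0.18 without SAMP8 replicate 2 and -0.01 without SAMP8 replicate 4, and it turned to 0.067 under the offset.

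Interferon-stimulated genes were below 0 in 15 of 16 cases (median -0.63, and -0.34 without SAMR1 replicate 2) and 0 passed in edgeR, with 4 at an unadjusted p under 0.05 and 1 past the threshold in DESeq2. Bst2 (tetherin) was at 0 to 0.902 CPM against 1.67 to 6.91 CPM (-2.47 ± 0.63, adjusted p = 0.175). Of 9 complement and cytokine genes, 5 were above 0 (median 0.23, and 0.03 without SAMP8 replicate 3) and 0 passed in edgeR or DESeq2, with 3 at an unadjusted p under 0.05. The complement gene C4b was at 59.1 to 99.6 CPM against 7.37 to 35.4 CPM (1.67 ± 0.38, adjusted p = 0.123). Of 19 genes of cholesterol synthesis 15 were below 0 (median -0.20, and -0.36 without SAMR1 replicate 1) and 0 passed in edgeR, with 4 at an unadjusted p under 0.05 and 1 past the threshold in DESeq2. Among them were Hmgcs1 at -0.56 ± 0.13 and Dhcr7 at 0.79 ± 0.25, both without overlap. Of 40 genes of long-term potentiation and glutamate receptors (median 0.14) and 28 of dopamine signalling (median 0.15), 0 passed in edgeR or DESeq2. At an unadjusted p under 0.05 there were 5 and 7, against 1487 of all 15370 genes. The metabotropic glutamate receptors Grm2 (0.71 ± 0.20, adjusted p = 0.218) and Grm3 (0.45 ± 0.14, adjusted p = 0.272) did not overlap between the labels. Medians of both lists moved by more than 1.5 times when SAMR1 replicate 2 or 3 was left out, to 0.06 and 0.23 for the first and 0.24 and 0.03 for the second. The first was also 0.02 without SAMR1 replicate 1 and the second 0.25 without SAMP8 replicate 3.

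**Figure D5:**
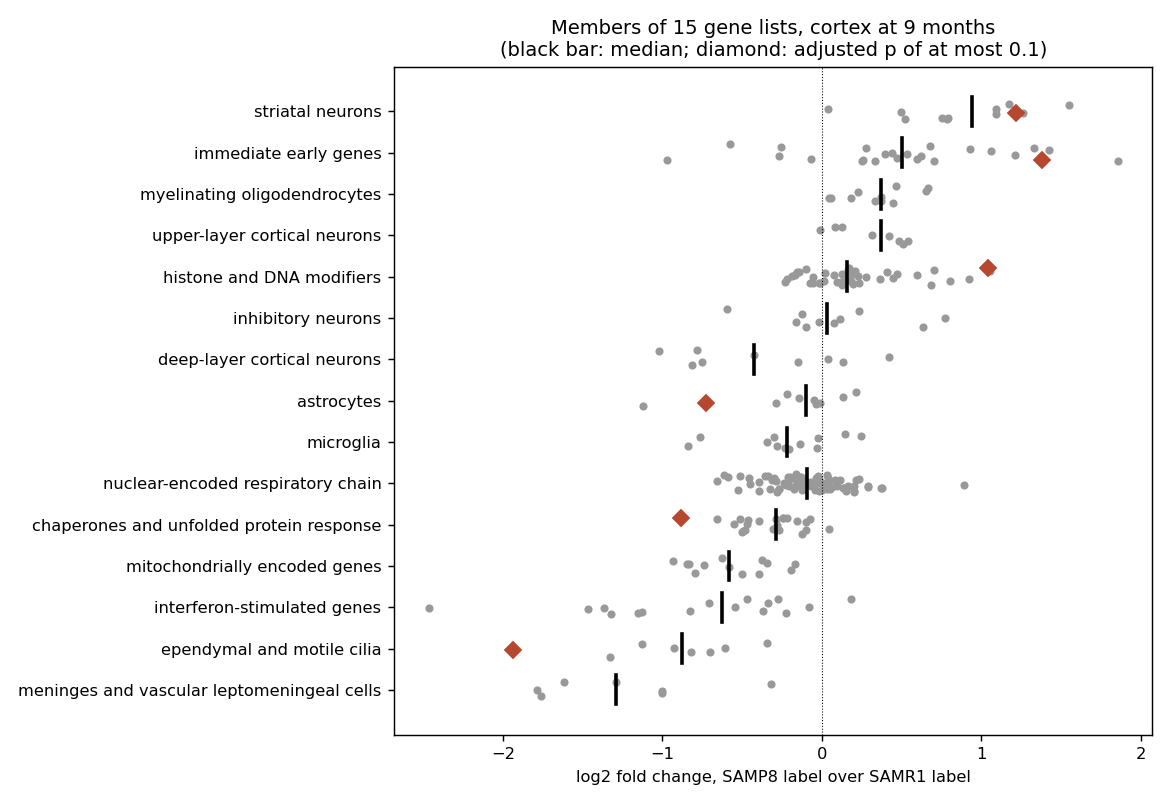
Log2 fold change of the SAMP8 over the SAMR1 label (x axis) for the tested members of 15 gene lists in the cortex at 9 months; points are genes, black bars list medians and diamonds genes whose adjusted p did not exceed 0.1. The medians run from 0.94 in the striatal list to -1.29 in the meningeal list, and the 6 diamonds are Rasd2, Egr1, Kmt2d, Aqp4, Pdia6 and Rsph1.

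In the families of Dctn3 and P3h2, no other member passed the test. In the list of dynein and dynactin subunits, 18 of 22 genes were below 0 (median -0.15, -0.08 without SAMR1 replicate 3 and -0.01 under the offset), and Dctn3 was the 1 that passed; Dctn6, also of dynactin, was at 36.1 to 63.3 CPM against 70.3 to 84.7 CPM (-0.51 ± 0.18, adjusted p = 0.366). Among 12 prolyl and lysyl hydroxylases of collagen, 7 were above 0 (median 0.14, and -0.02 without SAMP8 replicate 3), P3h2 alone passed, and P4ha1 was at -0.41 ± 0.17 (adjusted p = 0.440).

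Called genes also differed in what they were. Of the 23 genes called lower, 14 were protein-coding and 4 were pseudogenes (17.4%, against 4.40% of all genes tested). Of the 21 called higher, 13 were protein-coding (61.9%, against 85.7% of all genes tested) and 3 were small RNAs, of which 53 were among the 15370 genes tested. The median GC content of each gene's longest annotated transcript was 57.3% for the 20 called higher that had a value. It was 49.4% for those called lower and 49.2% for all genes. The median lengths of all annotated exons of a gene together were 3774, 2140 and 4300 bases. When an offset corrected for the GC content and length of genes, 10 genes were called higher and 15 lower, and Dctn3, P3h2, Abcc8, Rny1 and Rasd2 were still called. The log2 fold change of Kmt2d was 0.93 (adjusted p = 0.115), while the log2 fold change of Shank1 was 1.03 (adjusted p = 0.17) and the log2 fold change of Egr1 was 1.45 (adjusted p = 0.196) without a call.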

How the data were processed

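RNA was extracted with TRIzol from the cortex, depleted of ribosomal RNA and made into CORALL Total RNA-Seq libraries, which were sequenced on a NextSeq 500. The authors extracted molecular identifiers with UMI tools, trimmed with cutadapt, aligned with STAR and counted reads per gene with featureCounts (stranded forward); the version of each program is not given in the sources used here. The deposited values are raw counts per gene after removal of duplicate molecules, as the file headers say. The methods name Gencode M29 with GRCm38; coordinates here are of GENCODE M21 on GRCm38, which matched 52083 of 55359 identifiers (94.1%).

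Counts of the 7 libraries were tested in R 4.3.3 with edgeR 4.0.16 (filterByExpr, TMM, quasi-likelihood F test, Benjamini-Hochberg adjustment over all genes tested). SE is the log2 fold change divided by the square root of F. CPM are scaled by TMM over the 7 libraries unless the scale of 41 is named; summed list levels are unscaled CPM. The alternatives were DESeq2 1.42.0, limma 3.58.1 voom with quality weights, RLE, other filters, each library left out, a replicate block, an offset for GC content and length (span 0.3), and wider sets of libraries. The scripts were tested on simulated data. Genes were named by rule: up to 12 called genes in each direction by fold with a proper symbol whose mean level reached 1 CPM, the strain genes, and up to 3 genes of each list by p; some genes that met this rule are not reported here. The members, lists and tests were chosen with earlier results of these data known. No 2 libraries of a label were copies, chi-square over degrees of freedom between pairs being 6.50 or more.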

Additional observations from a re-analysis of the deposited data

Results flagged for a closer look

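In 8 of 72 genes checked, 1 SAMP8 library lay far from the other 3 by Dixon's criterion, which chance meets in about 1 of 20 groups. SAMP8 replicate 3, the shallowest, was the highest for Gm6166 (6.57 CPM), Rpp25l (26.3 CPM), Gm6356 (3.28 CPM) and Gm10524 (16.4 CPM). SAMP8 replicate 2, the deepest, stood apart for Nr4a1 (76.4 CPM). SAMP8 replicate 4 did so for Pom121 (37.4 CPM) and Ndufb8 (99.9 CPM), and SAMP8 replicate 1 for Trim12a (0.310 CPM).

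For 16 named genes the strain difference in the cortex at 9 months differed from that in the hippocampus at 9 months (12 genes) or the cortex at 2.5 months (15 genes), by edgeR's test of the difference itself over all 41 libraries. That model held no term for mouse. Over all 17039 genes, 45 (0.264%) and 75 (0.440%) were called. The named genes had been chosen by calls in these cortex libraries or as strain genes of these data. Their count thus follows in part from that choice and is not independent evidence. The adjusted p ranged from 2.22e-10 to 0.0247 for region and from 1.55e-07 to 0.0589 for age. Against the hippocampus and against 2.5 months, the log2 differences were 4.04 and 4.35 for P3h2, 11.05 and 8.60 for AC153155.1, and 4.95 and 5.72 for Gm10524. They were -3.49 and -3.66 for Dctn3, -2.75 and -2.37 for Invs, and -2.26 and -3.03 for Matn2. For Vcp-rs they were -4.35 and -4.49, for Ranbp9 -1.69 and -2.36, and for Gm6166 -9.79 and -8.99. Genes near 0 in 1 of the groups, whose fitted sizes depend on the prior count, gave -12.13 and -11.46 for Trim12a and -15.76 and -14.87 for Gm6356. Rassf3 differed by region (3.34). Lrrc10b (4.13), Slc18b1 (3.17), Tmem40 (-9.87) and Gpatch11 (-1.64) differed by age.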

How the results depend on the processing

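Counts of genes called higher and lower were 21 and 23. They were 13 and 17 at an adjusted p of 0.05 without a fold threshold, 65 and 41 by DESeq2, 205 and 138 by limma voom with quality weights, 168 and 101 without a filter on low counts, and 16 and 12 with a mean of at least 20 counts. A fit of all 41 libraries gave 4 and 14, all cortex libraries 3 and 13, and the offset for GC content and length 10 and 15. Leaving out 1 library at a time gave 8 to 51 higher and 6 to 54 lower. RLE normalization gave 21 and 23. Both regions at 9 months with region as a covariate, added after seeing the data, gave 1 and 0.

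Replicate numbers did not pair the samples, since the correlations of same-numbered deviations were -0.15, 0.06 and -0.02. With the replicate block 1 gene was called higher and 2 lower, and with the block and the offset 1 and 0.

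Genes whose strain difference differed by region numbered 45, and 237 when only 9 months was fitted. Those that differed by age numbered 75, and 116 with 14 cortex libraries. The share of strain genes with the opposite sign was 100% and, under the looser rule, 63.6%. Without the 2.5-month libraries under 1000000 counts it was 100%, over only 2 genes. Fabp5 (0.10) was at -0.073 without SAMP8 replicate 2, -0.020 without SAMR1 replicate 2 and 0.21 without SAMR1 replicate 3. Of 731 list medians under alternatives, 708 moved by less than the spread between libraries. The causes were not tested. The depth of SAMP8 replicate 3, with 583076 counts, limits genes of low level, and the labels do not give the sequencing run of each library.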
